A study of Homo sapiens with 4 samples.

Results

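Many genes on no list of cell cycle, histone or interferon response genes changed after knockdown of hnRNPK in UM-UC-3 cells. Those genes are described here, and some without a symbol may still belong to these classes. They were measured by RNA-seq in 1 si-hnRNPK library and 1 control siRNA library, of 4 libraries in the series, as CPM, the reads of a gene scaled to a common library total. A gene was taken as changed when log2(CPM + 1) differed by 1 or more (2-fold) between these libraries, among 13672 genes at 1 CPM or more in either. Of 1023 changed genes (7.48% of those tested), 774 were on none of 3 lists set apart (cell cycle, histone and interferon response genes). UM-UC-3 is an established human bladder cancer cell line. All cells were transfected with 75 nM siRNA and Lipofectamine RNAiMAX, and RNA was taken 48 h later. The si-hnRNPK cells received a mixture of 2 siRNAs, and the control cells a siRNA labelled as the negative control. The remaining libraries are labelled si-lncRNA-LBCS (called the LBCS-labelled library below) and si-PTBP1, and their values stand beside each main result, in that order. Each condition is 1 library of 1 cell line, so no spread between cultures is known, no p-value across genes is given, and the intervals below cover counting error only. In RNA from a whole culture, fewer cells of a kind and less RNA per cell cannot be told apart.

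hnRNPK is an RNA- and DNA-binding protein with KH domains that prefer runs of C. It moves between nucleus and cytoplasm and is known to act in transcription, splicing, mRNA stability and translation. Among the genes described here are known targets of NF-kB, a transcription factor held in the cytoplasm by inhibitors such as IkB alpha, and genes of the actin cytoskeleton and of growth factor responses, many of which are known targets of the serum response factor.

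The siRNAs are shown first because their seeds, the bases 2 to 8 of the guide strand, can also pair with other mRNAs. The sense strands are printed 5′ to 3′, and the capitals mark bases 12 to 18, which have the sequence that a seed-matched mRNA would carry.
hnRNPK siRNA-1: ggguuguagagUGCAUAAatt
hnRNPK siRNA-2: gccuccaucuaGAAGAGAutt
control siRNA: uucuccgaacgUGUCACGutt

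HNRNPK itself (ENSG00000165119, chromosome 9, 83968083 to 83980616, minus strand of GRCh38) had 48063 reads with the control siRNA and 10198 reads with si-hnRNPK. These were 783 and 188 CPM, beside 808 CPM in the LBCS-labelled library and 656 CPM with si-PTBP1. The si-hnRNPK library stood apart from the 3 others and held 24% of the control level, or -2.05 (-2.08 to -2.02) on the log2 scale with its counting interval. Processed pseudogenes of HNRNPK carry near-identical sequence, so a part of these reads may be theirs.

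Over all genes, 486 were up (3.55%) and 537 were down (3.93%) in the si-hnRNPK library. Outside the lists set apart, 406 of 12988 genes were up (3.13%) and 368 were down (2.83%). The lists themselves held 4 up and 152 down of 433 cell cycle genes, 0 up and 15 down of 33 histone genes, and 76 up and 2 down of 218 interferon response genes. With the libraries rescaled by the median of ratios, which moved the median of all genes from -0.11 to -0.0031, the split outside the lists became 517 up and 248 down. Symbols were known for 382 of the genes up and 317 of the genes down. The other 24 and 51 are identifiers without a symbol in the tables used, and they could not be placed on any list, so that some may belong to the lists set apart. Of 792 such identifiers 6.44% were down, a larger share than the 2.83% above, so the 368 genes down may include listed genes. As markers of the labelled line, VIM was 2344 CPM in control and 1700.4 CPM with si-hnRNPK, and KRT18 was 121 and 75.2 CPM. Of the listed markers 7 mesenchymal and 3 epithelial ones (KRT7, KRT8 and KRT18) reached 1 CPM. KRT5 and KRT19 did not, and EPCAM and CDH1 were not analysed here.

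**Figure D1:**
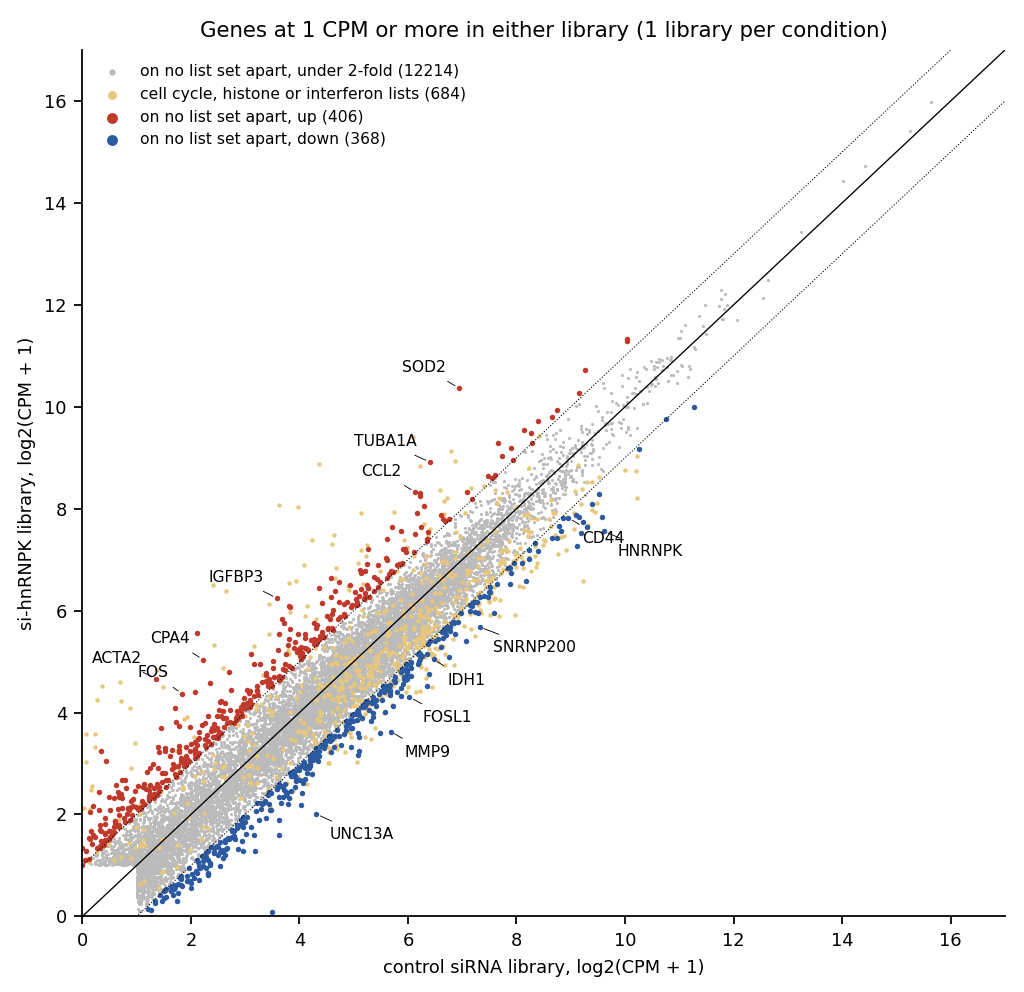
Level of each gene in the control library (x axis) and the si-hnRNPK library (y axis), both as log2(CPM + 1), with 1 point per gene. The dotted lines mark 2-fold, red and blue points are the 406 and 368 changed genes on none of the lists set apart, and SOD2 lies farthest above the line among the highly expressed genes.

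Changed genes were also placed among all 4 libraries. The si-hnRNPK library was the highest library for 342 of the 406 genes up (84.2%) and the lowest for 353 of the 368 genes down (95.9%). Over all genes it was the highest for 20.9% and the lowest for 43.5%. The choice of these genes already places it above or below the control, so the shares add only its position relative to the other knockdowns. Against the geometric mean of both other knockdown libraries, 152 of the genes up and 116 of the genes down still passed the threshold, while 22 and 7 had the opposite sign. In that comparison 2.32% of all genes were up and 2.68% down, and the median log2 fold change over all genes was -0.15. The control library lay below both other knockdown libraries for 276 of the genes up and above both for 236 of the genes down. Over all genes the control lay above both for 27.5%, and the share below both was not counted. All these comparisons share the 1 control library, by whose value the genes were chosen, so the counts are a description only.

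The largest rises were taken from genes with symbols that reached 10 CPM, with 2-fold required both against control and, in the same direction, against the other knockdowns. Of 240 genes at that level and past 2-fold against control, 92 qualified and the 15 largest were named. SOD2, the manganese superoxide dismutase of mitochondria (ENSG00000112096, chromosome 6, 159669057 to 159745186, minus strand), was 122 CPM in control, 1322 CPM with si-hnRNPK, and 154 and 149.7 CPM in the LBCS-labelled and si-PTBP1 libraries. Its level with si-hnRNPK was 10.9 times that of control, a log2 fold change of 3.43 (3.40 to 3.47), while the 3 other libraries lay close together. ACTA2, the smooth muscle alpha-actin, had 95 reads in control and 1316 with si-hnRNPK, and rose from 1.55 to 24.2 CPM, or 3.31 (3.11 to 3.50) on the log2 scale. The LBCS-labelled library was at the control level of ACTA2 (1.54 CPM), and the si-PTBP1 library was in between (9.63 CPM). CPA4, a secreted carboxypeptidase, rose from 3.67 to 31.9 CPM, against 8.64 and 2.85 CPM in the other knockdown libraries. IGFBP3, which binds insulin-like growth factors in the medium, rose from 11 to 74.8 CPM, against 12.4 and 17 CPM. TUBA1A, an alpha-tubulin, rose from 83.6 to 481 CPM, with 165 and 194 CPM in the other knockdowns, but it shares much of its sequence with other tubulin genes. CLDN1, a tight junction protein, rose from 4.09 to 23.1 CPM and was below control in both other knockdown libraries, at 1.45 and 2.75 CPM. HDAC9, a class IIa histone deacetylase, rose from 11.8 to 55.9 CPM, against 12.1 and 17.8 CPM. TUFT1 rose from 13.2 to 66.3 CPM, against 27.1 and 26.3 CPM, and THEMIS2, a signalling adaptor known from immune cells, from 3.23 to 20.2 CPM, against 1.95 and 4.67 CPM. The remaining rises of this group were FOS, ATF3, CCL2, CALD1 and CCN2, described with their families, and 1 processed pseudogene whose reads may come from its parent gene.

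**Figure D2:**
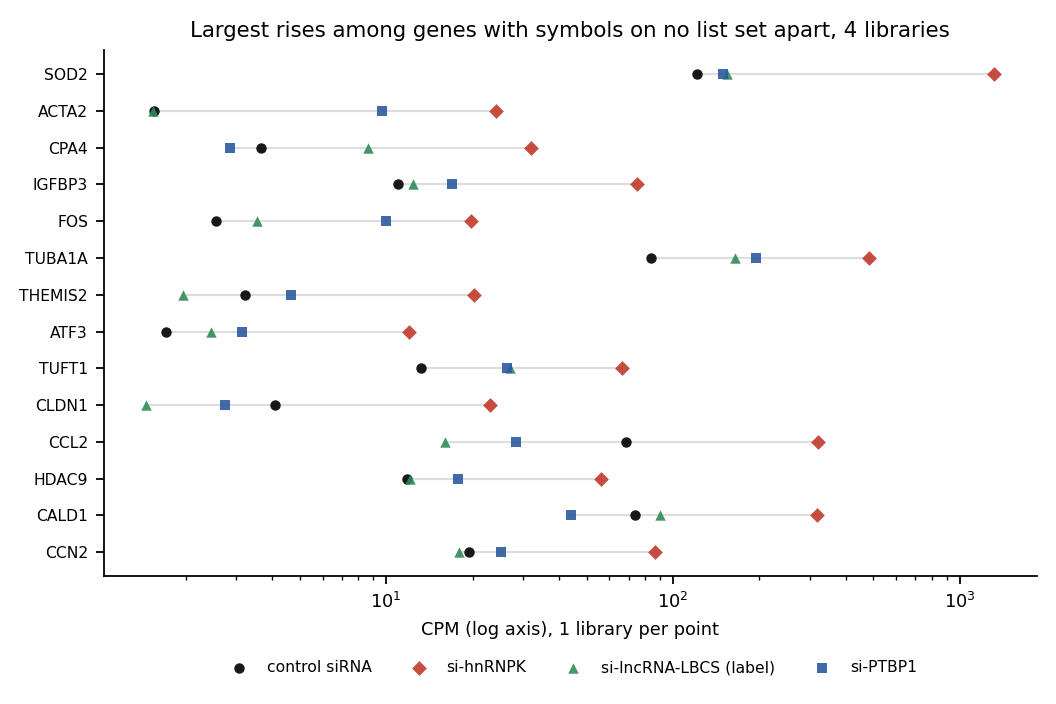
CPM (log axis) of 14 of the 15 largest rises among genes with symbols on none of the lists set apart, with 1 marker per library and the pseudogene left out. The si-hnRNPK library (red diamond) is the rightmost marker for each gene, and the control lies to the right of both other knockdown libraries for CCL2 and CLDN1.

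Many inflammatory genes rose. Of 35 expressed members of a chemokine and cytokine list, 12 were up (34.3%, beside 3.55% of all genes) and 0 down, with a median log2 fold change of 0.55 against -0.11 over all genes. Of 39 expressed members of a list of NF-kB feedback and TNF receptor family genes, 8 were up, SOD2 among them, and 0 down, with a median of 0.31, or 0.54 against both other knockdowns. CCL2, which attracts monocytes, was 68.9 CPM in control, 320.4 CPM with si-hnRNPK, and 16.1 and 28.3 CPM in the LBCS-labelled and si-PTBP1 libraries. CXCL8, the neutrophil attractant interleukin-8, rose from 37.2 to 148 CPM, against 16.6 and 22.3 CPM. For both genes the control stood between the si-hnRNPK library above it and the other knockdowns below it. CCL20, a ligand of CCR6, had 22 reads in control and 396 with si-hnRNPK, or 0.358 and 7.29 CPM, and 1.25 and 1.44 CPM in the other knockdowns. IL7, a growth factor of lymphocytes, rose from 1.38 to 6.48 CPM, but was 2.16 and 4.26 CPM in the other knockdowns and did not pass the threshold against them (0.87). The other members up, named after their values were seen, were CCL7, CXCL6, CXCL3, IL1R1, TNF, CXCL2, IL18 and CSF1. TNF remained low, at 0.179 CPM in control, 1.93 CPM with si-hnRNPK and 0.0997 and 0.553 CPM in the other knockdowns.

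The second list held the adaptors and inhibitors of the same pathway. TRAF1, an adaptor at TNF receptors and a known NF-kB target, was 34.1 CPM in control, 106 CPM with si-hnRNPK, and only 3.45 and 5.37 CPM in the other knockdown libraries. Its log2 fold change was 1.60 (1.53 to 1.67) against control and 4.32 against both other knockdowns. NFKBIA, which encodes the inhibitor IkB alpha, rose from 243 to 495 CPM, against 88.9 and 146 CPM. TNFAIP3, the ubiquitin-editing inhibitor A20, rose from 15.3 to 38.2 CPM, against 8.4 and 12.4 CPM. RELB, an NF-kB subunit, rose from 28.4 to 70.6 CPM, against 20.0 and 28.9 CPM. These 3 genes and VCAM1 were picked after their values were seen. PTGER4, a receptor of prostaglandin E2, rose from 4.82 to 17.5 CPM, against 7.02 and 7.31 CPM, and TNFSF9, the ligand of 4-1BB, from 2.43 to 8.6 CPM, against 2.28 and 3.55 CPM. VCAM1, a leukocyte adhesion molecule, completed the list at 0.228 CPM in control, 3.24 CPM with si-hnRNPK and 0.228 and 0.660 CPM in the other knockdowns. The si-hnRNPK library was the highest of the 4 for all 12 and all 8 of these genes, and 9 and 8 of them also passed the threshold against both other knockdowns. Both other knockdown libraries lay below control for 20 of the 39 expressed NF-kB list members, compared with 27.5% of all genes. Of 6 listed leukocyte markers, 2 reached 1 CPM, and the summed level of the 6 was 2.23 CPM in control, 3.54 CPM with si-hnRNPK, 0.897 CPM in the LBCS-labelled library and 1.48 CPM with si-PTBP1.

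**Figure D3:**
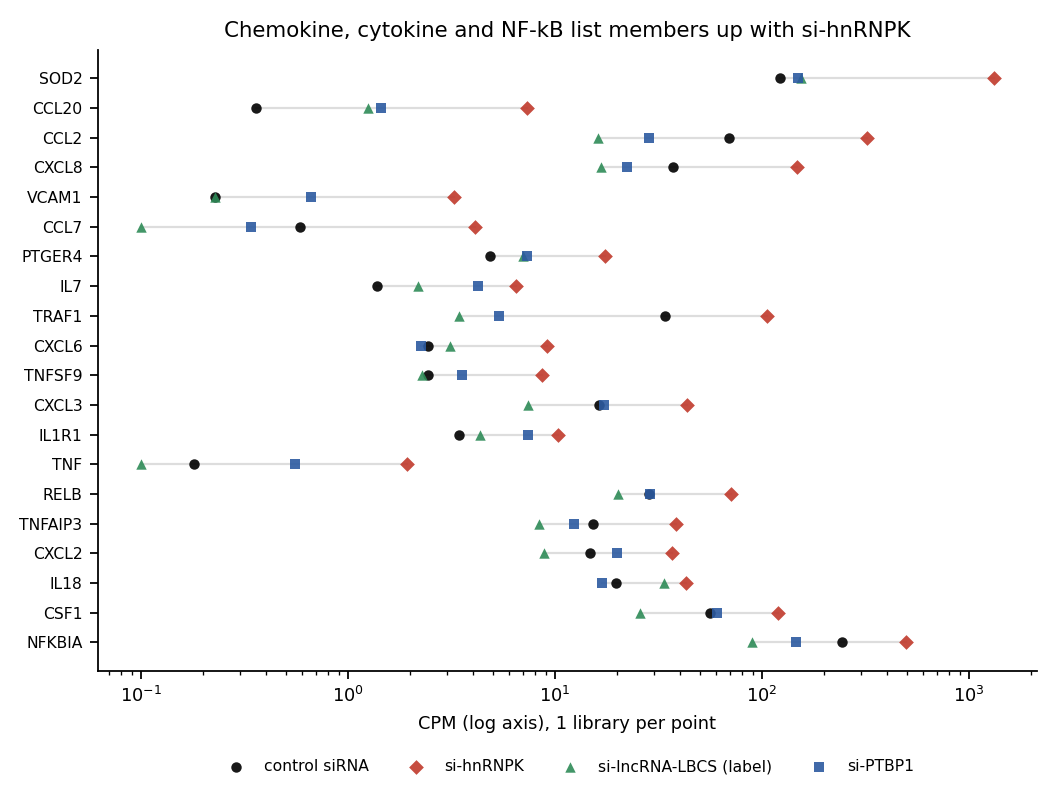
CPM (log axis) in each of the 4 libraries for the 12 chemokine and cytokine genes and the 8 NF-kB and TNF receptor family genes past 2-fold. The red diamond of the si-hnRNPK library is the highest in every row, and CCL2, CCL7, CXCL8, TRAF1, NFKBIA and TNFAIP3 have the control (black circle) above both other knockdowns.

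Transcription factors of the AP-1 and immediate early class moved both ways. Of 41 expressed members, 7 were up (17.1%) and 3 down, with a median of 0.53. Against both other knockdowns the list median was 0.15, beside -0.15 for all genes. FOS rose from 2.56 to 19.7 CPM, FOSB from 0.261 to 8.47 CPM (16 and 460 reads), and the stress-induced factor ATF3 from 1.71 to 12 CPM. Each of these was also above control in both other knockdown libraries, by less: FOS was 3.53 and 9.97 CPM there, FOSB 1.05 and 4.24 CPM, and ATF3 2.45 and 3.14 CPM. JUNB, picked after its value was seen, rose from 36.7 to 119.5 CPM, against 21.3 and 46.3 CPM. FOSL1, which encodes the AP-1 subunit FRA1, went the other way, from 64.2 to 18.7 CPM, or -1.72 (-1.82 to -1.63) on the log2 scale. FOSL1 was also below control in the LBCS-labelled library and with si-PTBP1, at 21.3 and 34.6 CPM. BHLHE40 and BHLHE41, repressors of the circadian clock and the other members down, went from 23.8 to 10.6 CPM and from 4.82 to 1.77 CPM, the latter picked after its value was seen. In the other knockdowns BHLHE40 was 16.3 and 21.1 CPM and BHLHE41 3.29 and 3.64 CPM. Among readouts of RAS and ERK signalling 6 of 42 genes were up and 3 down. The ERK phosphatase DUSP6 rose from 61.5 to 142 CPM, against 35.2 and 66.7 CPM, and IER3 from 70.4 to 242 CPM, against 79.1 and 86.5 CPM. The ETS factor ETV1 fell from 12 to 4.05 CPM, against 5.87 and 8.86 CPM, and did not pass the threshold relative to those libraries (-0.70).

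A part of the contractile cytoskeleton list rose as well. Of 47 expressed actin, myosin and smooth muscle genes, 10 were up (21.3%) and 0 down, with a median of 0.18. Beside ACTA2 these were CNN1, CALD1, TPM4, FHL2, TPM1, TRIM55, MYLK, CNN2 and TPM2, several of them from families with similar sequences. CALD1, the actin-binding protein caldesmon, was 73.5 CPM in control, 317 CPM with si-hnRNPK, and 90.2 and 44.2 CPM in the other knockdowns. TPM4, a tropomyosin, rose from 279 to 742 CPM, but the si-PTBP1 library was higher still, at 835 CPM, and the LBCS-labelled library reached 565 CPM. FHL2, a LIM domain protein, rose from 74.8 to 199 CPM, against 126 and 144 CPM. As with TPM4 and FHL2, 7 of the 10 were above control in both other knockdown libraries too, and 4 of the 10 passed the threshold against those libraries. Of 5 fibroblast and smooth muscle markers in the tables, ACTA2 and MYH11 reached 1 CPM. MYH11, the smooth muscle myosin heavy chain, was 1.87 CPM in control and 0.460 CPM with si-hnRNPK.

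Promoters of both groups were searched for the known motifs of their usual regulators, in windows of 300 bases around the RefSeq start (GRCh38.p14), on both strands. The motifs were the CArG box, the NF-kB motif, the AP-1 site (TGACTCA or TGAGTCA) and CCCTCC, a run of C of the kind hnRNPK prefers, which can lie inside an NF-kB motif. The CArG box, the site of the serum response factor, was in the promoters of 4 of the 9 actin, myosin and smooth muscle genes that were up and had a promoter in the table, namely TPM4, FHL2, MYLK and CNN2. It was in 7 of 40 promoters of the expressed list and in 1.29% of all promoters. The list holds many known targets of that factor, so these shares describe the list and not the rise. Against both other knockdowns the log2 fold change was 0.11 for TPM4, 0.56 for FHL2, 0.42 for CNN2 and 1.26 for MYLK. ACTA2, CALD1 and CNN1, which also passed the threshold there, held no CArG box in this window. In the AP-1 and immediate early list the CArG box was in 1 of 7 promoters of genes that were up, that of EGR1. EGR1 went from 0.277 to 1.75 CPM and was 0.271 and 2.71 CPM in the other knockdowns. The NF-kB motif was in 4 of 7 promoters of NF-kB list genes that were up, namely NFKBIA, TNFAIP3, VCAM1 and PTGER4, and in 10.8% of all promoters. It was also in 13 of the 30 promoters found for the expressed list (76.9% of its genes). The list was chosen for its link to NF-kB, so these shares describe the list and not the rise. The AP-1 site was in 0 of the promoters of the 9, 7 and 7 genes that were up in these 3 lists and in 4.92% of all promoters. CCCTCC was in 44.3% of all promoters, in 27 of 40 of the expressed actin list, and in 7 of 9, 4 of 7 and 3 of 7 promoters of the genes that were up in the actin, AP-1 and NF-kB lists. A match describes the letters in this window and shows no binding. Under 80% of genes had a promoter in the table for the chemokine list, the expressed NF-kB list and all expressed genes. The same held for all genes up or down outside the lists set apart, so a comparison of these promoters was void. The promoters found for expressed genes (79.1%) held CCCTCC in 53.3%, the NF-kB motif in 12.8%, the AP-1 site in 3.12% and the CArG box in 1.03%. The shares over all promoters also cover genes that were not expressed. The 250 bases before the start are printed for 5 of these promoters, with the motif in capitals.
FHL2, chr2:105438514-105438763, minus strand: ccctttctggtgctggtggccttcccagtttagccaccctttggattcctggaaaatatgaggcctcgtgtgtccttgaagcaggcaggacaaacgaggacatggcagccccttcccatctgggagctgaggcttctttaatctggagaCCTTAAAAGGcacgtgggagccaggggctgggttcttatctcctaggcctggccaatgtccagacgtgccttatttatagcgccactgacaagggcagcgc
TPM4, chr19:16067288-16067537, plus strand: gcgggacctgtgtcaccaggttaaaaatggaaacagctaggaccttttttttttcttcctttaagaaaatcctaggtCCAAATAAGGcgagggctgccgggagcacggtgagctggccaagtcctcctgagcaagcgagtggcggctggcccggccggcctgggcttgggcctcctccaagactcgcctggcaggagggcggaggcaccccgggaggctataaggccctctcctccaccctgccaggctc
EGR1, chr5:138465229-138465478, plus strand: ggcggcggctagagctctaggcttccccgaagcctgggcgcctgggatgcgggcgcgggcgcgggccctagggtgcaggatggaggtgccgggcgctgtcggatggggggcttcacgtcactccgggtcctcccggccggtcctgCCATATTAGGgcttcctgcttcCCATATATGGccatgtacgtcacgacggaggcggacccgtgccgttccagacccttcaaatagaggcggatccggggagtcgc
NFKBIA, chr14:35404750-35404999, minus strand: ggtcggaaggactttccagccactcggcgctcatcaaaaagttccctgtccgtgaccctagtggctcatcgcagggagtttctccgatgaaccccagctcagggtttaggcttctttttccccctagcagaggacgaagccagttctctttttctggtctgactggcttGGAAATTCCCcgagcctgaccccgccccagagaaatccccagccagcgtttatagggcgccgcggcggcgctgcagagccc
TNFAIP3, chr6:137867009-137867258, plus strand: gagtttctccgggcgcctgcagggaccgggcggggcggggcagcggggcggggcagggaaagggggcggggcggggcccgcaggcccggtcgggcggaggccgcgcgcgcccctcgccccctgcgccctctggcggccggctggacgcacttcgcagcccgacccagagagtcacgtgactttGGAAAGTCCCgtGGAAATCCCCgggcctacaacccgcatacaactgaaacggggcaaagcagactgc

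The matrix and its proteases gave a mixed picture, and MMP9 depended on the library it was compared with. MMP9, a gelatinase that cleaves collagen of basement membranes (ENSG00000100985, chromosome 20, 46008908 to 46016561, plus strand), was 50.3 CPM in control and 11.3 CPM with si-hnRNPK, a change of -2.06 (-2.17 to -1.94) on the log2 scale. In the LBCS-labelled and si-PTBP1 libraries it was lower still, at 5.25 and 4.89 CPM. Against both other knockdowns MMP9 was therefore higher with si-hnRNPK, by 1.02 on the log2 scale, and the control library stood alone above the 3 knockdown libraries. MMP1, the interstitial collagenase, went the opposite way from 7.63 to 34.5 CPM, against 3.82 and 7.81 CPM. ADAMTS1, another secreted protease, rose from 21.9 to 58.7 CPM, against 21.8 and 20.4 CPM. Of 28 expressed MMP, ADAM and inhibitor genes, 3 were up and 1 was down.

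Among other matrix proteins 9 of 32 were up and 1 down, with a median of 0.45, which was 0.10 without the filter on low values and 0.24 against both other knockdowns. CCN2 and CCN1, matricellular proteins induced by growth factors, rose from 19.5 to 86.3 CPM and from 47.1 to 129 CPM, and in the other knockdown libraries CCN2 was 17.9 and 25.2 CPM and CCN1 34.8 and 44.4 CPM. FN1, fibronectin, rose from 57.2 to 189 CPM but was 78 and 211 CPM in the other knockdowns. HSPG2, the basement membrane proteoglycan perlecan, rose from 96.7 to 233 CPM, against 72 and 105 CPM. AGRN, one of the 9, is also on the interferon list. Collagens and laminins split, with 3 up and 6 down of 25. COL4A1 of basement membranes rose from 23.7 to 63.5 CPM, against 43 and 32.4 CPM, and COL5A2 from 2.15 to 8.6 CPM, against 4.04 and 9.15 CPM. None of the 3 collagens that were up passed the threshold against both other knockdowns. COL7A1, which forms anchoring fibrils, fell from 6.79 to 1.42 CPM, against 6.12 and 10.4 CPM. COL17A1, the collagen of hemidesmosomes, picked after its values were seen, fell from 44.9 to 18 CPM but was 18.2 and 11.5 CPM in the other knockdowns, so that the control stood alone above the 3 knockdown libraries as for MMP9. Keratins and squamous genes were down in 6 of 17 and up in 0, with a median of -0.55 (-0.14 without the filter on low values), and 5 of these 6 had si-hnRNPK as the lowest library. Only 1 of the 6 passed the threshold against both other knockdowns, and 4 of the 6 were below control in both of those libraries. KRT15 fell from 15.4 to 3.57 CPM, against 3.73 and 6.12 CPM. Integrin and focal adhesion genes were up in 0 and down in 4 of 32 (TNS1, ITGA2, PXN and ITGA4). All 4 were also below control in both other knockdown libraries, and 0 passed the threshold against them. Paxillin, encoded by PXN, fell from 62.1 to 26.9 CPM, against 30.6 and 60.2 CPM. The hyaluronan receptor CD44 fell from 495 to 225 CPM, against 304 and 511 CPM (-0.81 relative to both), and the heparan sulphate proteoglycan SDC4 rose from 201 to 621 CPM, against 223 and 200.2 CPM.

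**Figure D4:**
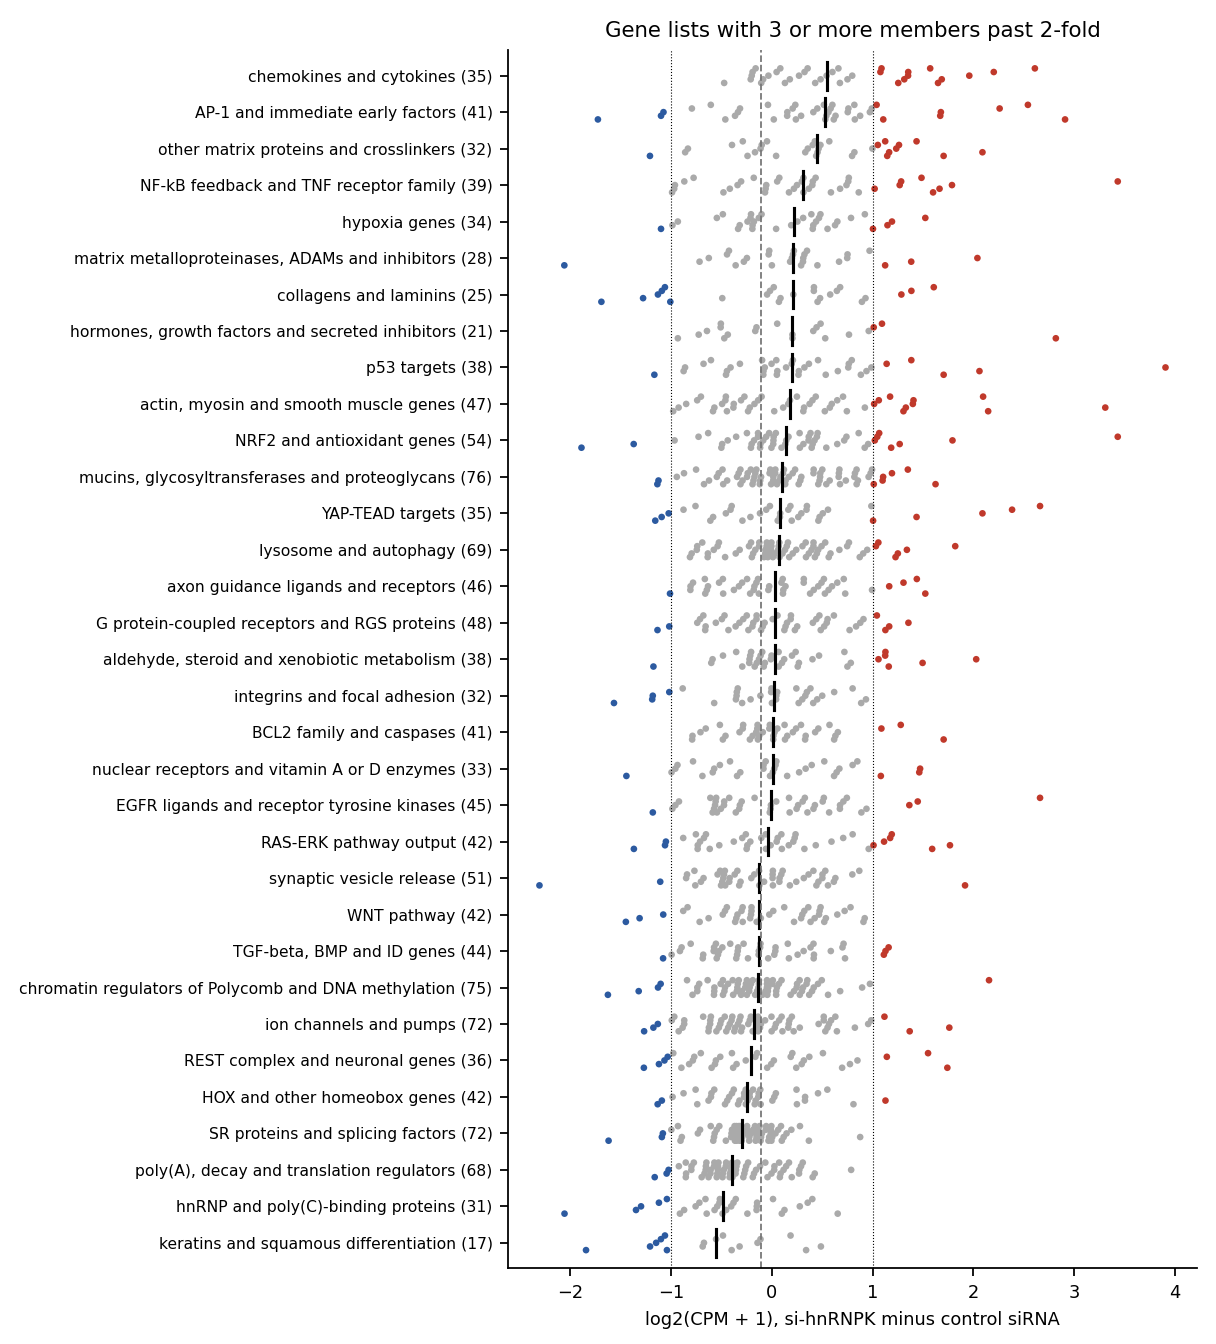
Log2 fold change (si-hnRNPK minus control, log2(CPM + 1)) of each expressed member of gene lists with 3 or more members past 2-fold (1 such list is not shown), with 1 point per gene, the number of members in parentheses and the list median as a black bar. Beside the dashed median of all genes (-0.11) and the dotted thresholds, the medians of the chemokine, AP-1, matrix and NF-kB lists sit highest and those of the keratin and hnRNP lists lowest.

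Growth factor ligands and redox genes were among the remaining rises. The EGFR ligands EREG and HBEGF rose from 42.8 to 119 CPM and from 69 to 179 CPM. EREG was above control in both other knockdowns, at 70.9 and 94.9 CPM, and its log2 fold change against them was 0.53, while HBEGF was below control there, at 50.7 and 47.9 CPM. Of 54 expressed NRF2 and antioxidant genes, 7 were up (SOD2 among them) and 2 down. HMOX1, heme oxygenase 1, was 47.7 CPM in control, 168 CPM with si-hnRNPK and 12.5 and 33.1 CPM in the other knockdowns. TXNRD1, thioredoxin reductase, picked after its value was seen, rose from 1044 to 2519 CPM, against 1078 and 864 CPM. NQO2, a quinone reductase, fell from 43.5 to 11 CPM, or -1.89 (-2.01 to -1.77) on the log2 scale, while both other knockdown libraries stayed near control at 38.3 and 47.5 CPM. NNMT, which methylates nicotinamide, rose from 73.7 to 304 CPM, against 78 and 76.3 CPM. The gap junction protein GJA1 rose from 77.2 to 264 CPM, against 50.8 and 114 CPM, and the pro-apoptotic BH3 protein BBC3 from 5.64 to 20.6 CPM, against 5.44 and 9.6 CPM. Of 38 expressed p53 targets 5 were up and 1 down, but 3 of the 5 are also on the lists set apart.

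The largest falls among genes with symbols were chosen by the same rule, from 77 that qualified of 225, and were led by UNC13A. Some identifiers without a symbol fell by more than several of those named. UNC13A, a protein that primes synaptic vesicles for release (ENSG00000130477, chromosome 19, 17601328 to 17688365, minus strand), had 1156 reads in control and 164 with si-hnRNPK, or 18.8 and 3.02 CPM. It was 4.34 CPM in the LBCS-labelled library and 16.3 CPM with si-PTBP1. The control was 6.24 times the si-hnRNPK level, a log2 fold change of -2.30 (-2.49 to -2.12), but against both other knockdowns the change was -1.26, since the LBCS-labelled library was nearly as low. Of 51 expressed genes of synaptic vesicle release only UNC13A and SYNJ1 were down and SYTL2 was up. SLC4A8, a sodium-driven chloride-bicarbonate exchanger, fell from 11.3 to 2.01 CPM, against 4.61 and 7.12 CPM. MDC1, which binds phosphorylated H2AX at DNA breaks, fell from 33.2 to 8.47 CPM, against 14 and 29.6 CPM. IDH1, the cytosolic isocitrate dehydrogenase, was 87.9 CPM in control, 32 CPM with si-hnRNPK and 118 and 105 CPM in the other knockdowns, so that the si-hnRNPK library alone was low. ADD3, a membrane skeleton protein, showed the same order, with 12.8 CPM in control, 3.63 CPM with si-hnRNPK and 14.6 and 13.2 CPM in the others. SH3PXD2A, the invadopodium scaffold TKS5, fell from 46.6 to 15.1 CPM, against 22.1 and 54.9 CPM. Further falls of this group were those of CNDP2 (from 51.6 to 16.5 CPM), SOGA1 (from 57.3 to 18.9 CPM), SERTAD4 (from 13 to 4.0 CPM), SCML1 (from 32.6 to 11.1 CPM) and RAB15 (from 15.8 to 5.14 CPM), each also past the threshold against both other knockdowns by the rule.

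**Figure D5:**
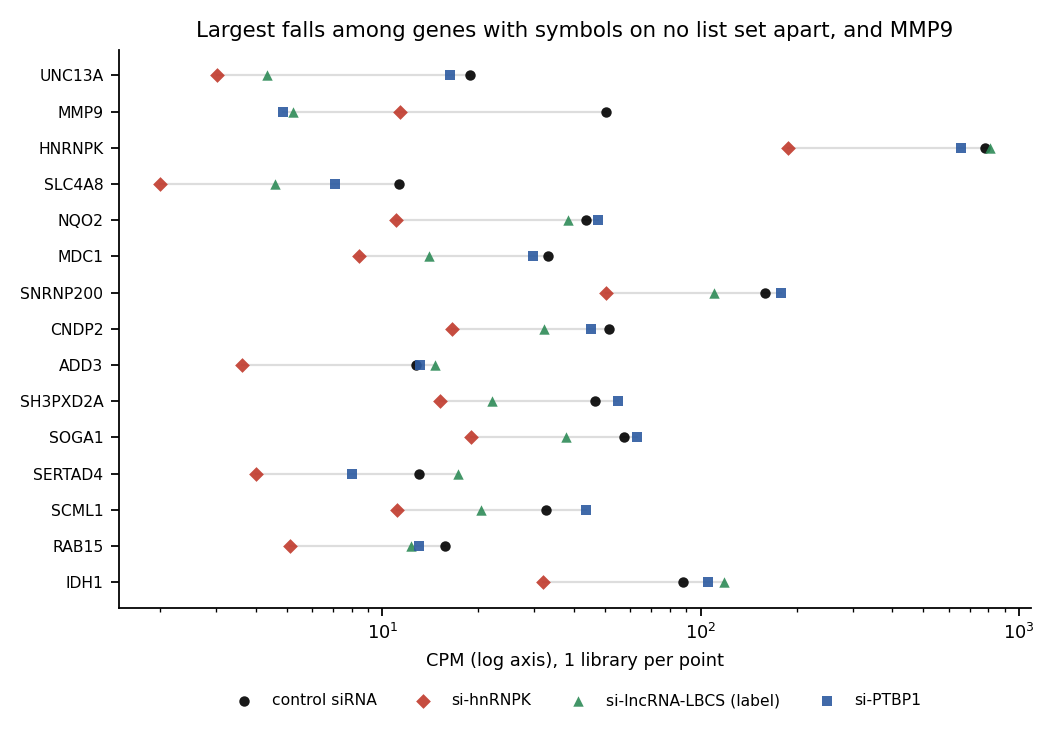
CPM (log axis) in each of the 4 libraries for 14 of the 15 largest falls among genes with symbols on none of the lists set apart and for MMP9. The si-hnRNPK library (red diamond) is the leftmost marker except for MMP9, where both other knockdown libraries lie to its left.

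Lists of hnRNP, splicing and RNA decay genes had medians below that of all genes. In that order 16.1%, 4.17% and 4.41% of their expressed members were down, beside 3.93% of all genes. Of 31 expressed hnRNP and poly(C)-binding protein genes, 0 were up and 5 down, with a median of -0.49. Among the 5 were HNRNPK, the target of the siRNAs, HNRNPD, HNRNPH3 and PTBP2. HNRNPD, which binds AU-rich elements, fell from 59.1 to 22.6 CPM, against 37.8 and 57.8 CPM. It was closer to control with si-PTBP1 than in the LBCS-labelled library. Of 72 SR proteins and splicing factors, 0 were up and 3 down, with a median of -0.29. With median-of-ratios scaling that median was -0.18, beside -0.0031 for all genes. SRRM2, a scaffold of nuclear speckles, fell from 190.3 to 61.3 CPM but was 77.7 and 178 CPM in the other knockdowns. SNRNP200, the helicase of the U5 snRNP, fell from 159 to 50.2 CPM, against 109.8 and 179 CPM. Of 68 poly(A), decay and translation regulators, 0 were up and 3 down (CNOT6, DICER1 and CNOT3), with a median of -0.40. With median-of-ratios scaling these 3 lists kept 4, 1 and 1 genes down and 0 up. Among 75 chromatin regulators 1 was up and 4 down (SETD1B, KMT2D, KMT2A and DNMT3B). KMT2D, a methyltransferase of histone H3 at enhancers, fell from 115 to 45.7 CPM, against 56.2 and 122 CPM. The changed protein-coding genes that were down outside the lists had longer transcripts, with a median of 4781 bases for the longest annotated transcript against 3762 for all protein-coding genes and 3420 for those up. A seed match to either hnRNPK siRNA was in the longest 3′ UTR of 41.6% of those down (121 of 291), 25.7% of those up and 30.5% of all protein-coding genes, with median UTR lengths of 1777, 1459 and 1658 bases. The seed of the control siRNA had a match in 3.09%, 5.90% and 3.64% of them. The part of length and seed matches in these falls was not tested.

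Signalling and surface proteins gave small counts in both directions. Of 42 expressed WNT pathway genes 0 were up and 3 down, the transcription factors LEF1 (from 9.4 to 2.82 CPM) and TCF7 (from 11.1 to 4.73 CPM) and the ligand WNT7B (from 12.5 to 4.44 CPM). In the other knockdowns LEF1 was 6.08 and 6.92 CPM, TCF7 8.84 and 12.4 CPM and WNT7B 11 and 20.5 CPM. GLI3, a transcription factor of hedgehog signalling, fell from 11.1 to 4.64 CPM but was 7.1 and 18 CPM in the other knockdowns. Of 48 G protein-coupled receptors and RGS proteins 4 were up and 2 down. The bradykinin receptor BDKRB1 rose from 18.3 to 42.4 CPM, against 14.4 and 16.2 CPM. The neurotensin receptor NTSR1 fell from 40.2 to 17.8 CPM, against 39.5 and 32.7 CPM. For both receptors the si-hnRNPK library stood apart from 3 similar libraries. DOCK10, a guanine nucleotide exchange factor, fell from 32.7 to 8.01 CPM, against 11.3 and 13.9 CPM. ITPR3, an inositol trisphosphate receptor of the endoplasmic reticulum, fell from 98.8 to 43.3 CPM and was 95 and 95.9 CPM in the other knockdowns.

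Several neuronal and axon guidance genes were highest with si-PTBP1. Of 36 expressed genes of the REST list 3 were up and 4 down, and of 46 axon guidance genes 4 were up and 1 down. The cell adhesion molecule NCAM2 rose from 20.3 to 70.1 CPM, but was 45.3 and 105 CPM in the other knockdowns. The guidance ligand SEMA3A rose from 16.2 to 45.8 CPM, against 31.6 and 70.9 CPM, and the receptor ROBO2 from 27.4 to 69.2 CPM, against 43.5 and 93.3 CPM. In each of these the si-PTBP1 library was the highest of the 4 and the control the lowest. NPTX1 and EFNA1, also up in these lists, were instead highest with si-hnRNPK. NPTX1 rose from 3.58 to 12.4 CPM, against 4.36 and 4.83 CPM, and EFNA1 from 3.81 to 12.8 CPM, against 3.29 and 4.99 CPM. RCOR1, a corepressor of REST, fell from 49.9 to 20.1 CPM, against 37.9 and 43.4 CPM.

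Several large families had few members past the threshold, but the lysosome and autophagy list had a larger share up than all genes. Of 78 cytoplasmic ribosomal protein genes 0 were up and 1 down, with a median of 0.11. That gene, RPS16, was 107 CPM in control, 33 CPM with si-hnRNPK and 36.5 and 80.0 CPM in the other knockdowns, and ribosomal protein genes have many processed pseudogenes that can share reads. Of 75 nuclear-encoded genes of oxidative phosphorylation 1 was up and 1 down, of 28 heat shock protein genes 0 in either direction, and of 34 cholesterol synthesis and uptake genes 0 up and 1 down. Of 36 glycolysis and glucose transport genes only SLC2A3 was up and LDHA down. LDHA, lactate dehydrogenase A, went from 1739 to 863 CPM, with 1290.0 and 1189 CPM in the other knockdowns. The unfolded protein and integrated stress response list had 2 of 69 up, PPP1R15A from 47.9 to 126 CPM, against 47.5 and 60.3 CPM, and the chaperone CALR from 570.0 to 1242 CPM, against 887 and 708 CPM. Of 69 lysosome and autophagy genes 6 were up (8.70%, beside 3.55% of all genes) and 0 down. Among those up were the cathepsin CTSB, from 307 to 720.2 CPM, and MAN2B1, from 23.2 to 60.2 CPM. CTSB was 513 and 565 CPM in the other knockdowns and MAN2B1 25.1 and 29.1 CPM.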

How the data were processed

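The authors deposited 1 table of CPM per library, made from 100-base paired-end reads of total RNA, with Ensembl gene identifiers. The submitters' processing notes name hg19; the aligner, counting method, strand setting and annotation are not given in the sources used here. All values with reads were whole multiples of 1 read (100%, tolerance 0.1 read), which gave 61371954 reads for control, 54301152 for si-hnRNPK, 70232674 for the LBCS-labelled library and 56064691 for si-PTBP1. From these, differences in log2(CPM + 1) were calculated for genes at 1 CPM or more in control or si-hnRNPK, with a threshold of 1. Changes of low genes are understated on this scale. Each interval (95%, exact Clopper-Pearson) was computed from the reads of a gene in both libraries. A binomial test of the reads, which compares libraries and not conditions, called 10894 genes (Benjamini-Hochberg adjusted threshold 0.05), including all 1023 changed genes.

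Symbols matched 20920 of 25719 identifiers, through a gene name table (20802) and GENCODE release 29 (118). Positions and transcripts are from GENCODE release 29 on GRCh38, matched by identifier, and promoters from RefSeq on GRCh38.p14. The genes and lists were chosen with earlier results of these data known. Named were HNRNPK, MMP9 and UNC13A, the 15 largest rises and 15 largest falls as described, and up to 4 changed members at 5 CPM or more per list, with the largest changes. The other members named were chosen after their values were seen. Some members are not reported here. The scripts were tested on simulated data. Alternatives were another pseudocount, filter, threshold, scaling or reference library, and the binomial test. Calculations ran in Python 3.11.15 with scipy 1.17.1, pandas 2.3.3, numpy 2.4.6 and matplotlib 3.10.9.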

Additional observations from a re-analysis of the deposited data

How the results depend on the processing

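With 1 library per condition no library could be left out, and nothing here measures the spread between cultures. No paired analysis was possible because each condition has 1 library. Outside the lists set apart, 406 genes were up and 368 down. The counts became 698 and 809 with a pseudocount of 0.1, 1230 and 1850 with a threshold of 1.5-fold, 232 and 231 when the reference was the mean (geometric) of all 3 other libraries, and 228 and 259 against both other knockdown libraries without the control. They stayed within 1.5 times with no filter, a filter of 5 CPM, the binomial test and median-of-ratios scaling (517 and 248). Of the list medians under each alternative, 28 moved by over 25% of the interquartile range of the list and 272 did not. Of 181 named genes past the threshold, 181 remained past it with a pseudocount of 0.1, 166 after scaling, 109 against the mean of 3 libraries and 92 against both other knockdowns. In the last setting 9 turned direction, to a log2 fold change of 1.02 for MMP9, 0.54 for CD82, 0.29 for COL17A1, 0.40 for PNP, 0.44 for SBSN, -0.19 for EDIL3, -0.33 for GRIK2, -0.061 for MRAS and -0.051 for SEMA3A. That setting leaves out the control library, so it compares 3 knockdowns only.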

Other observations

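Among genes with no place in the comparisons above, NEAT1, the long noncoding RNA that builds paraspeckles, was 194 CPM in control, 402 CPM with si-hnRNPK, 168 CPM in the LBCS-labelled library and 622 CPM with si-PTBP1. It was the 1 changed gene of 54 expressed on a list of long noncoding RNAs. Over all annotated lincRNAs outside the lists set apart, 23 of 332 were up and 5 down. The antisense class had 17 up and 10 down of 484, and whether its reads come from the opposite strand could not be told.

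Some identifiers without a symbol, which could not be placed on the histone, chemokine or any other list, changed strongly. ENSG00000184779 had 630 reads in control, 3 with si-hnRNPK and 0 in both other knockdown libraries, so the control library stood alone. ENSG00000197846 fell from 766 to 227 CPM and was 608 and 552 CPM in the other knockdowns. Of the identifiers that rose, ENSG00000117289 went from 33.6 to 109.5 CPM, against 18.5 and 41.5 CPM, and ENSG00000161570 from 19 to 40.7 CPM, against 6.07 and 7.15 CPM.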
